A study of Danio rerio with 4 samples.

Results

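The miRNAs of zebrafish neural crest cells (NCC) were set against those of the remaining cells of the same embryos (non-NCC) at 16 hpf, and 103 of the 372 miRNAs in the table had at least 10 reads in both libraries. These 103 miRNAs, the members of the comparison, were described by family, that is, by the name without letter, copy number and arm. Embryos carried Tg(sox10:eGFP, sox10:mRFP), a line in which the sox10 promoter drives fluorescent proteins, and came from natural matings without further treatment named in the labels. Cells were separated by FACS into a GFP-positive fraction, labelled NCC, and a GFP-negative fraction, labelled non-NCC, so both groups carried the transgene and non-NCC held every other cell type of the embryo. The sox10 promoter is active in neural crest and also, as background, in the forming ear of zebrafish. Each fraction was represented by 1 small RNA library, and the other stage of the study, 28 hpf, was not compared here. Within the sequencing, no difference between NCC and non-NCC therefore has a replicate check, and no test between the groups was possible. The table holds miRNAs only, so the identity of the sorted cells could not be checked here against mRNA of crest genes such as foxd3. The study itself measured foxd3 and a non-NCC marker, tbx5a, in the sorted fractions by RT-qPCR.

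Neural crest cells arise at the border of the neural plate, leave it by an epithelial-to-mesenchymal transition and give rise to melanophores, craniofacial cartilage, peripheral neurons and glia. A miRNA is cut from a hairpin precursor whose 5p and 3p arms can each be loaded into Argonaute, where bases near the 5′ end, the seed, pair with target mRNAs. Members of a family usually share the seed, and many precursors are transcribed together from clusters.

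The letters of 3 miRNAs that the study chose from this comparison are carried by its designed forward oligos for stem-loop RT-qPCR. They are shown because these miRNAs link the sequencing to the later experiments, and the capitals mark the bases after the stretch that all 3 oligos share. The capitals rest on this comparison of the oligos alone and need not start at the first base of a miRNA.
miR-133a-3p: cacgcatTTGGTCCCCTTCA
miR-199-3p: gcacgcatACAGTAGTCTGCAC
miR-338-3p: cacgcatCCAGCATCAGTGATT
The first and the second of these miRNAs are among the 103 members. The third, miR-338-3p, had 1 read in NCC and 13 reads in non-NCC, so its log2 ratio had a counting interval from -3.21 to 4.93 and it was left out.

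Values are normalized counts, read numbers after division by a library size factor. Every value was a whole multiple of the smallest one in its library, and 1 read was worth 7.72 normalized counts in NCC against 0.1295 in non-NCC. Recovered reads totalled 2340716 in NCC versus 140132389 in non-NCC, a 59.9-fold difference in depth. The minimum of 10 reads thus corresponds to 77.2 normalized counts in NCC and to 1.29 in non-NCC. The 103 members held 99.98% of the NCC reads versus 99.95% of the non-NCC reads. Ratios are given as the log2 of NCC over non-NCC, so that 1 stands for 2-fold higher in NCC and -1 for 2-fold higher in non-NCC. They come with intervals by the Clopper-Pearson method at 95% confidence, computed on the reads, which cover counting error only, as the reads carry no molecular identifiers and so do not stand for independent molecules. In sorted populations, a larger share of cells with a miRNA and more of it per cell cannot be told apart.

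Of the 103 members, 30 (29.1%) were over 2-fold higher in NCC, 24 (23.3%) were over 2-fold higher in non-NCC and 49 lay within 2-fold. These shares are the background against which the counts of each family are read. The whole interval lay past 2-fold for 22 of the 30 and for 16 of the 24. The median log2 ratio of the members was 0.12, and the ratios ranged from -2.43 to 5.03. The 30 miRNAs came from 18 families and the 24 from 16, and 5 families had miRNAs on both sides. Reads were few on both sides, with a median of 68.5 NCC reads for the 30 miRNAs and 45 for the 24. When the libraries were rescaled by TMM, which lowered all ratios by 0.23 on the log2 scale, 26 miRNAs were over 2-fold higher in NCC against 31 in non-NCC. The 4 that then fell below 2-fold in NCC were miR-462, miR-125a, miR-101a and miR-181c-5p, and the 7 that then passed it in non-NCC were miR-10a-5p, miR-10b-5p, miR-10c-5p, miR-15b-5p, miR-218a, miR-26b and miR-301c-3p. The minimum selects on both sides, because the NCC library is shallow. A miRNA that is low in NCC does not reach 10 reads there, and a miRNA of low level in non-NCC reaches them only by being higher in NCC. At an equal level, 16 of the 103 members would have had fewer than 10 NCC reads, and 12 of these are among the 30. For these 12, a ratio above equality was fixed by the minimum, though not in each case one past 2-fold. They are let-7c-5p, let-7f, let-7i, miR-125a, miR-125b-2-3p, miR-130c-5p, miR-193b-5p, miR-2185-5p, miR-25-5p, miR-92a-2-5p, miR-430a-5p and miR-451. All but let-7c-5p, miR-125a and miR-2185-5p are also among the 22 whose whole interval lay past 2-fold. The rest of the 16, miR-146b, miR-138-5p, miR-155 and miR-30c-3p, lay within 2-fold, and their ratio above equality was fixed by the minimum as well. The intervals take no account of this selection. Among the other 87 members, 18 (20.7%) were over 2-fold higher in NCC and 24 (27.6%) in non-NCC. With at least 20 reads in both libraries the counts were 27 in NCC versus 14 in non-NCC, and with the minimum set on the mean of both values they were 27 and 37.

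**Figure D1:**
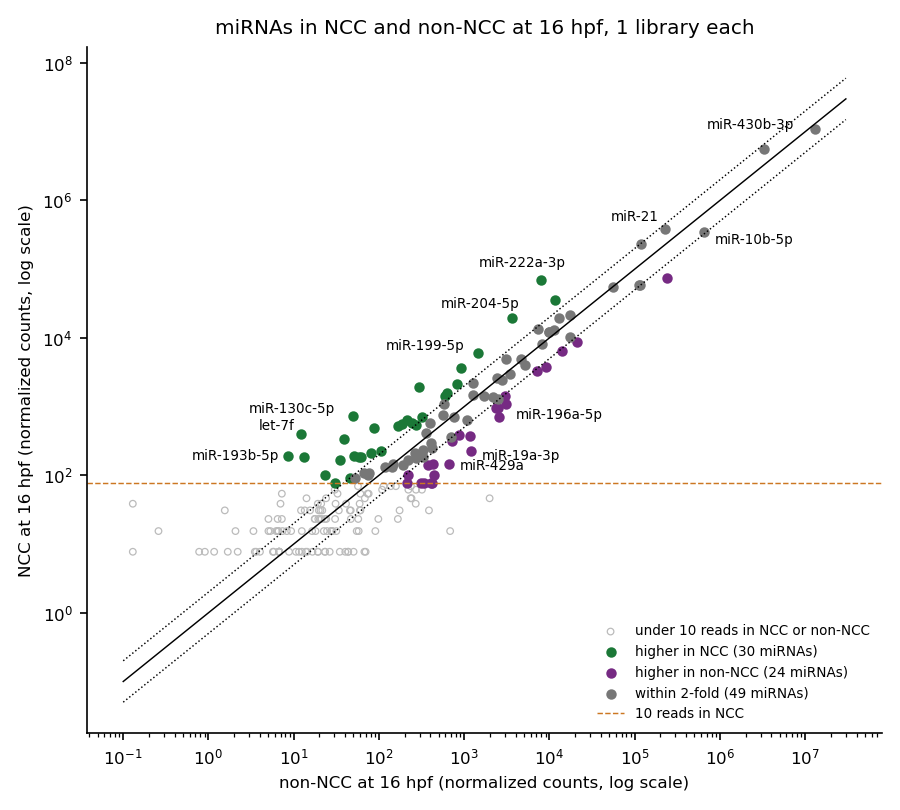
Normalized counts of each miRNA in non-NCC (x axis, log scale) and NCC (y axis, log scale) at 16 hpf, with 1 point a miRNA, the solid line at equal values and the dotted lines at 2-fold. The 30 miRNAs higher in NCC reach up to miR-222a-3p. Toward low levels, both these 30 and the 24 higher in non-NCC end at the dashed line of 10 NCC reads. Open circles below this line are miRNAs left out.

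Among the 14 families with 3 or more members, let-7, miR-125 and the family of miR-25, miR-92 and miR-363 had a median over 2-fold higher in NCC. These medians rest on members that the minimum let in because they were high in NCC. Without such members, let-7 had 2 members left (let-7a and let-7g) with a median of 0.49, miR-125 only miR-125b-5p, and the miR-25 family 5 members with a median of 0.96, under 2-fold. The let-7 family, first known from the timing of larval stages in Caenorhabditis elegans and a promoter of differentiation in many tissues, had 5 members out of 12 rows in the table, with a median log2 ratio of 1.34. Its most abundant member, let-7a, stood at 1598 normalized counts in NCC (207 reads) against 630.4 in non-NCC (4867 reads), which is 1.34 on the log2 scale (1.13 to 1.54). The summed values of all 12 rows gave nearly the same ratio as let-7a, at 1.39 (1.22 to 1.55). let-7i reached 169.8 normalized counts in NCC versus 34.6 in non-NCC, with 22 and 267 reads. The 2 libraries stood farthest apart for let-7f, with 393.7 normalized counts in NCC against 12.05 in non-NCC, from 51 and 93 reads. That ratio was 5.03 (4.51 to 5.54), the highest of all 103 members. let-7g went the other way within 2-fold, at 169.8 normalized counts in NCC versus 219.2 in non-NCC, and its interval included equality (-1.05 to 0.23). let-7c-5p, with 10 NCC reads, stood at 77.2 against 30.6 normalized counts, a ratio of 1.34 (0.26 to 2.24). Members of this family differ at few bases, and how the authors treated reads that match several of them is not given in the sources used here, so the split between let-7 members is uncertain.

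miR-125, whose founding relative lin-4 acts in the same timing pathway of Caenorhabditis elegans, had 3 members over 2-fold higher in NCC. miR-125b-5p stood at 208.4 normalized counts in NCC (27 reads) against 79.8 in non-NCC (616 reads), which is 1.39 on the log2 scale (0.77 to 1.94). The passenger arm of 1 of its precursors, miR-125b-2-3p, had 24 NCC reads against 102 non-NCC reads and a ratio of 3.81 (3.10 to 4.46). miR-125a had only 12 NCC reads, and its interval from 0.07 to 1.85 did not lie wholly past 2-fold. All 3 members had few reads in NCC, between 12 and 27.

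miR-25, miR-92 and miR-363, part of the miR-17-92 group of clusters known from cell proliferation and tumours, formed a family of 7 members, of which 4 were over 2-fold higher in NCC versus 1 in non-NCC. miR-92a-3p, which ranked 5th in NCC and 6th in non-NCC, stood at 232111 normalized counts in NCC against 119204 in non-NCC, a ratio just under 2-fold (0.96, 0.94 to 0.98). miR-92b-3p was higher in NCC by more, with 35026 normalized counts in NCC versus 11739 in non-NCC (1.58, 1.53 to 1.62). Minor arms had the highest ratios among the members, led by miR-92a-5p with 1899 normalized counts in NCC against 292.5 in non-NCC (2.70, 2.50 to 2.89). miR-25-5p (2.10, 13 NCC reads) and miR-92a-2-5p (1.91, 25 NCC reads) followed, both let in by the minimum only because they were higher in NCC. Of the minor arms left out, miR-363-5p had 2 NCC reads against 446 non-NCC reads (-1.90, -4.95 to -0.04). miR-92b-5p had 0 against 26. Among the members, miR-363-3p was the exception, with 386 normalized counts in NCC against 879.3 in non-NCC and a ratio of -1.19 (-1.62 to -0.79). Outside the miR-430 family, they took 19.5% of the NCC reads versus 9.48% of the non-NCC reads.

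**Figure D2:**
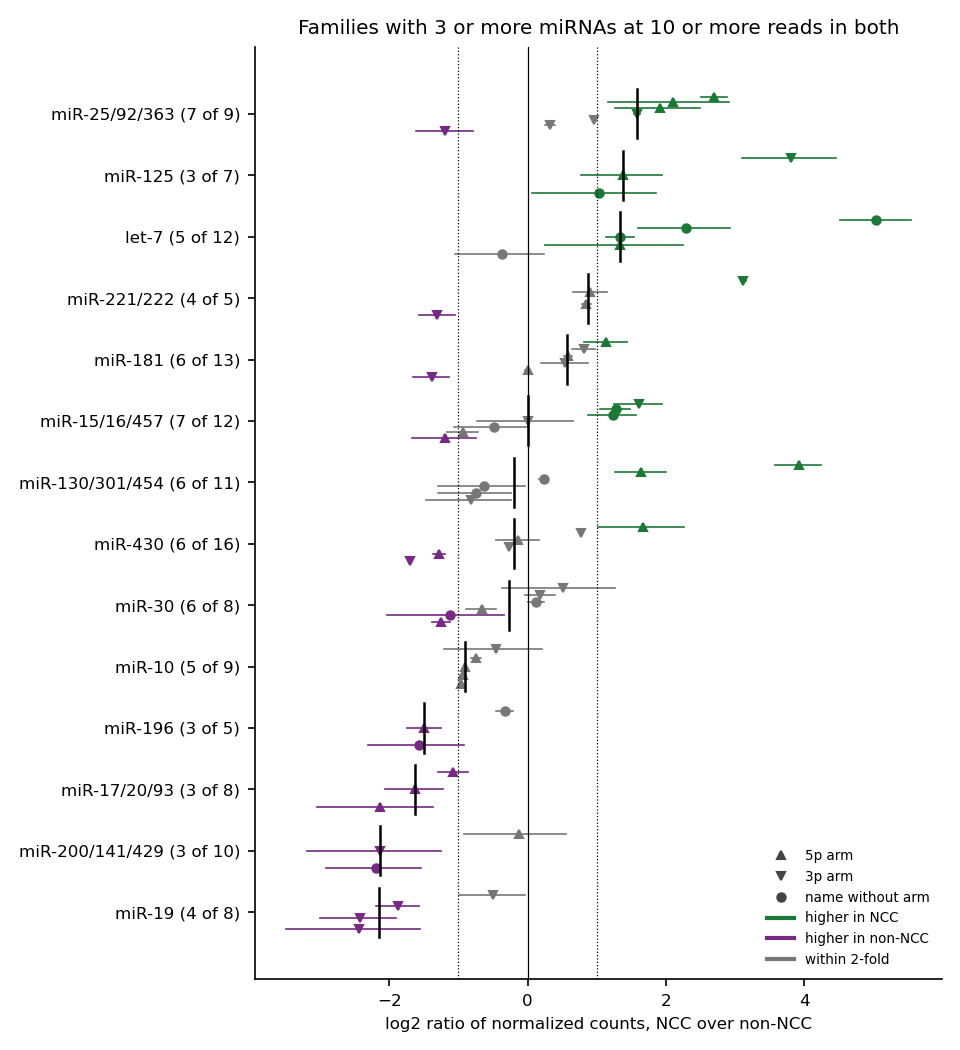
Log2 ratio of normalized counts, NCC over non-NCC (x axis), for each member of the 14 families with 3 or more members (y axis, members and rows in the table in brackets), with 95% counting intervals as horizontal lines and the family median as a vertical bar. The medians run from -2.15 for miR-19 to 1.58 for the miR-25 family, and in families such as miR-221 with miR-222 and miR-15 with miR-16, single members lie past 2-fold on either side.

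Several miRNAs from families with 1 or 2 members were also higher in NCC. miR-204-5p, known from the retinal pigment epithelium and lens of vertebrates, had 19192 normalized counts in NCC versus 3627 in non-NCC, with 2486 and 27998 reads and a ratio of 2.40 (2.34 to 2.46). It ranked 14th in NCC and 26th in non-NCC. Both arms of miR-199, a miRNA of mesenchyme, had nearly the same ratio. miR-199-5p stood at 6114 normalized counts in NCC against 1434 in non-NCC (2.09, 1.99 to 2.20), and miR-199-3p at 3613 and 905.6 (1.996, 1.86 to 2.13). A further row of the family, miR-199-3-3p, fell just short of the minimum with 8 NCC reads against 234 non-NCC reads, and its ratio was 1.03 (-0.20 to 2.03). miR-133a-3p, best known from skeletal and heart muscle, had 494.1 normalized counts in NCC versus 87.3 in non-NCC (2.50, 2.11 to 2.87), from 64 and 674 reads. Of the other rows of the miR-133 family, miR-133b-3p had 0 NCC reads versus 618 non-NCC reads, and miR-133c-3p 0 versus 445.

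miR-451, an erythroid miRNA that is matured by Argonaute without Dicer, stood at 332 normalized counts in NCC (43 reads) against 39.4 in non-NCC (304 reads), a ratio of 3.08 (2.58 to 3.54). Its neighbour within 10 kb of the genome, miR-144, is also erythroid, and miR-144-5p had 2 reads in NCC versus 5280 in non-NCC (-5.47, -8.51 to -3.62). The 2 miRNAs thus lay on opposite sides, but the minimum let miR-451 in only because it was higher in NCC. miR-193b-5p had the second highest ratio of all members, at 193 normalized counts in NCC against 8.55 in non-NCC, from 25 and 66 reads (4.50, 3.77 to 5.18). At an equal level it would have had 1.11 NCC reads, so the minimum let it in only because it was far higher in NCC. Its partner arm miR-193b-3p had 3 NCC reads against 186 non-NCC reads and a ratio of -0.06 (-2.35 to 1.51). miR-27a-5p (1.58), miR-735-5p (1.35), miR-2185-5p (1.58), miR-101a (1.10), which targets the histone methyltransferase EZH2 in mammals, and miR-462 (1.01), an immune miRNA of fish, were also over 2-fold higher in NCC. The intervals of miR-2185-5p, miR-101a and miR-462 reached below 2-fold, and the minimum let miR-2185-5p in only because it was higher in NCC.

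**Figure D3:**
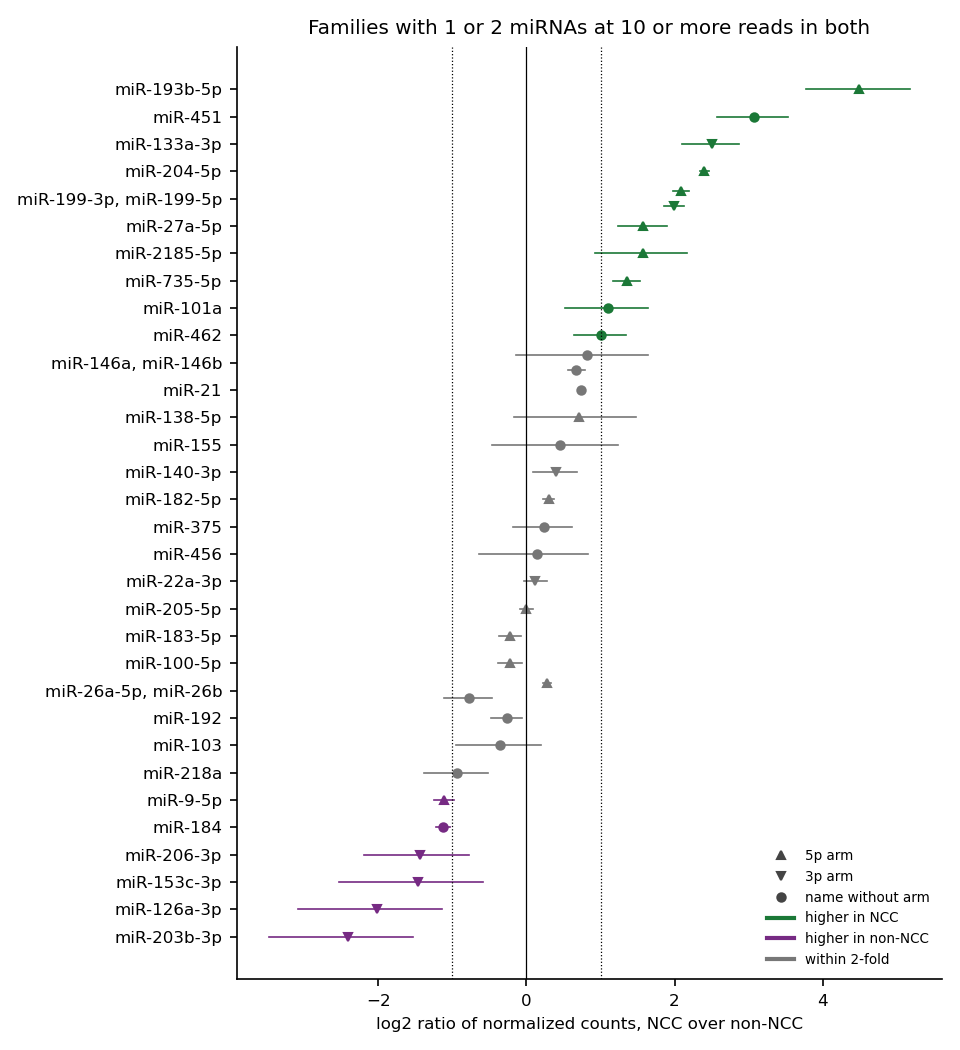
Log2 ratio of normalized counts, NCC over non-NCC (x axis), for the 29 families with 1 member and the 3 families with 2 members (y axis), with 95% counting intervals as horizontal lines and dotted lines at 2-fold. Of the 29 single members, 9 lie over 2-fold higher in NCC, 6 over 2-fold higher in non-NCC and 14 within 2-fold.

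On the non-NCC side, the families of miR-19, miR-200, miR-17 and miR-196 had a median over 2-fold. miR-19, which belongs to the miR-17-92 group of clusters, had 4 members with a median of -2.15. miR-19b-3p, the most abundant, stood at 702.5 normalized counts in NCC (91 reads) versus 2572 in non-NCC (19853 reads), a ratio of -1.87 (-2.18 to -1.57). miR-19a-3p had 223.9 and 1203 normalized counts (-2.43, -3.005 to -1.90). miR-19d-3p had the same ratio, -2.43, from 10 NCC reads. miR-19c-3p was nearer to equality, at 293.4 normalized counts in NCC against 413.1 in non-NCC (-0.49, -0.99 to -0.03). The summed values of the family were 3.55-fold higher in non-NCC.

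miR-17, miR-20 and miR-93, a family of the same clusters that acts on cell cycle regulators, had all 3 members over 2-fold higher in non-NCC. miR-17a-5p stood at 1420 normalized counts in NCC versus 2991 in non-NCC (-1.07, -1.29 to -0.87). miR-20a-5p had 378.3 and 1173 (-1.63, -2.07 to -1.23), and miR-20b-5p, with 13 NCC reads, 100.4 and 442.1 (-2.14, -3.05 to -1.36). A further row of the family, miR-93, was left out with 4 NCC reads against 2979 non-NCC reads and had a lower ratio than the members, -3.64 (-5.52 to -2.29).

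miR-200, with miR-141 and miR-429, the family that keeps cells epithelial by repressing Zeb transcription factors, had 3 members out of 10 rows. miR-429a stood at 146.7 normalized counts in NCC (19 reads) against 666.8 in non-NCC (5148 reads), a ratio of -2.18 (-2.92 to -1.54). miR-200a-3p had 10 NCC reads versus 2609 non-NCC reads (-2.13, -3.19 to -1.25), and miR-200b-3p, left out with 6 NCC reads, was close to both at -2.34 (-3.79 to -1.22). miR-200a-5p did not differ beyond counting error, at 131.2 and 143.7 normalized counts (-0.13, -0.91 to 0.55). Over all rows with any read in both libraries the family median was -0.13, whereas the summed values gave -1.66. Of the other epithelial miRNAs, miR-203b-3p, known from epidermis, had 10 NCC reads against 3183 non-NCC reads (-2.42, -3.48 to -1.54). miR-205-5p, also an epidermal miRNA, was level, at 8268 normalized counts in NCC versus 8281 in non-NCC.

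miR-196 and miR-10 lie within the Hox clusters, whose genes pattern the body axis. miR-196a-5p stood at 1088 normalized counts in NCC against 3059 in non-NCC (-1.49, -1.74 to -1.25), and miR-196c, with 19 NCC reads, at 146.7 and 435.9 (-1.57, -2.31 to -0.93). The most abundant member, miR-196b, differed less, with 4092 and 5148 normalized counts (-0.33, -0.46 to -0.21), and the summed values of the family, at -0.71, were within 2-fold. All 5 members of miR-10 were lower in NCC, within 2-fold. miR-10b-5p, the 4th miRNA of NCC and the 3rd of non-NCC, stood at 347588 and 649343 normalized counts (-0.90, -0.91 to -0.89). miR-10a-5p (-0.96), miR-10c-5p (-0.94) and miR-10d-5p (-0.75) lay close to it, and the interval of miR-10b-3p (-0.45) included equality. The members of miR-10 spanned only 0.51 on the log2 scale, the narrowest range among the 14 families. Outside miR-430, miR-10 took 32.8% of the NCC reads versus 59.6% of the non-NCC reads. Under TMM scaling the median of miR-10 passed 2-fold, at -1.13.

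The other single members on the non-NCC side are known from several tissues. miR-126a-3p, an endothelial miRNA, had 10 NCC reads against 2424 non-NCC reads (-2.02, -3.09 to -1.14). miR-206-3p, a miRNA of skeletal muscle, stood at 139 normalized counts in NCC versus 377.5 in non-NCC (-1.44, -2.20 to -0.78), on the other side of miR-133a-3p. The neural miR-9-5p, which had the most reads of this group apart from miR-184, stood at 3297 and 7126 normalized counts (-1.11, -1.25 to -0.98). The neural miR-153c-3p (-1.46, 10 NCC reads) and miR-184 (-1.13), known from lens and cornea, completed the 6 single members.

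The most abundant miRNAs were shared. miR-430, the family that clears maternal mRNA in the early zebrafish embryo, took 91.98% of the NCC reads versus 91.74% of the non-NCC reads, and its summed values were nearly equal (log2 ratio -0.003). Its 6 members spread around this level. miR-430b-3p, the first in rank in both libraries, stood at 10924467 normalized counts in NCC against 13115576 in non-NCC (-0.26). miR-430a-3p, second in both, was higher in NCC, at 5613902 and 3276319 (0.78, 0.77 to 0.78). miR-430c-3p, the 6th in NCC and the 4th in non-NCC, was higher in non-NCC, at 73788 and 238834 (-1.70, -1.72 to -1.67). The intervals of these 3 miRNAs do not overlap, so the makeup of the family differed between the libraries beyond counting error. The median of the members was -0.20. It turns to 0.20 when rows with fewer reads are included, but 8 of these are copies of miR-430a-5p with the same 1 NCC read and 52 reads in non-NCC. miR-21, a miRNA of growth and tumours, was the 3rd in NCC and the 5th in non-NCC, at 379178 and 227626 normalized counts (0.74, 0.72 to 0.75). It took 26.2% of the NCC reads outside miR-430 and 15.2% of the non-NCC reads.

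In 5 families, members lay past 2-fold on both sides, though the NCC side of miR-430 rests on miR-430a-5p alone. miR-221 with miR-222, a family that targets the receptor Kit and the cell cycle inhibitor p27 in mammals, had the widest split of these 5 families. miR-222a-3p stood at 69689 normalized counts in NCC (9027 reads) versus 8027 in non-NCC (61966 reads), a ratio of 3.12 (3.09 to 3.15). It ranked 7th in NCC and 21st in non-NCC, so it was the most abundant of the 30 miRNAs on the NCC side. miR-221-3p went the other way, at 957.3 and 2364 normalized counts (-1.30, -1.57 to -1.05). miR-222a-5p (0.85) and miR-221-5p (0.91) lay between them. The family took 5.87% of the NCC reads outside miR-430 and 1.23% of the non-NCC reads.

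miR-15 with miR-16 and miR-457, a family that targets cyclins, had 3 members over 2-fold higher in NCC against 1 in non-NCC, with a median of 0.00 that became -0.22 under TMM scaling. miR-16b stood at 1436 normalized counts in NCC versus 594.3 in non-NCC (1.27, 1.05 to 1.48), and miR-15c at 579 and 246.4 (1.23, 0.88 to 1.57). miR-15b-5p, the most abundant, was lower in NCC, at 1289 and 2473 (-0.94, -1.17 to -0.72). A further row of the family, miR-457a, was left out with 5 NCC reads against 2083 non-NCC reads, at -2.805 (-4.43 to -1.58). miR-181, known from lymphocyte development, was level in its main member, with miR-181a-5p at 55252 normalized counts in both libraries. This miRNA has the median ratio of the 225 with reads in both libraries, the point on which the scaling is centred. miR-181a-3p (-1.39) and miR-181c-5p (1.13) lay past 2-fold on opposite sides, and the 3 other members were between 0.54 and 0.81. In miR-430, miR-430a-5p (1.67, 24 NCC reads) stood opposite miR-430b-5p (-1.28) and miR-430c-3p. The minimum let miR-430a-5p in only because it was higher in NCC.

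In the families of miR-130, miR-301 and miR-454 and of miR-30, members passed 2-fold on 1 side only. In the first of these families, rows past 2-fold on the other side were left out by the minimum. miR-130c-5p had 741.1 normalized counts in NCC against 49.1 in non-NCC, from 96 and 379 reads, a ratio of 3.92 (3.58 to 4.24). The minimum let miR-130c-5p in only because it was higher in NCC. Its partner arm miR-130c-3p, left out with 8 NCC reads against 2464 non-NCC reads, was at -2.37 (-3.58 to -1.39). miR-454a, left out with 3 NCC reads against 1286 non-NCC reads, was at -2.85 (-5.13 to -1.30). miR-301b-5p was higher in NCC like miR-130c-5p, at 517.2 and 165.5 (1.64, 1.27 to 1.999). The most abundant member, miR-454b, had 13155 and 11199 normalized counts (0.23, 0.16 to 0.30). The family median of -0.20 and the ratio of its summed values, 0.23, differ in sign. In miR-30, known from the pronephros of Xenopus, miR-30e-5p stood at 3798 normalized counts in NCC versus 9021 in non-NCC (-1.25, -1.38 to -1.12), and miR-30b, with 13 NCC reads, at -1.12 (-2.03 to -0.34). miR-30d, in contrast, was near equality, at 4987 and 4578 (0.12, 0.01 to 0.24), and falls to -0.10 under TMM scaling.

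Among the remaining members within 2-fold, several are marks of particular tissues. miR-182-5p (0.30) and miR-183-5p (-0.22), from a cluster expressed in hair cells and photoreceptors, stood at 12267 and 2957 normalized counts in NCC. miR-375 of the endocrine pancreas (0.23) had an interval that included equality, miR-192 of gut and liver (-0.27) one that ended at -0.06. miR-140-3p of cartilage was at 748.8 normalized counts in NCC against 567.9 in non-NCC (0.40, 0.09 to 0.69). Of miR-146a (0.67) and miR-146b (0.82), both known from immune signalling, miR-146a leaned to NCC. The minimum let miR-146b in only because it was higher in NCC. miR-26a-5p (0.27) and miR-26b (-0.78) lay on opposite sides of equality. The neural miR-218a (-0.94) came close to 2-fold on the non-NCC side. miR-138-5p (0.71, -0.17 to 1.47), a miRNA of the neural list below that also patterns the zebrafish heart, had 14 NCC reads. miR-100-5p (-0.22), miR-103 (-0.35), miR-22a-3p (0.12), miR-456 (0.14) and miR-155 (0.45) completed the single members, and miR-22a-3p and miR-456 fall below 0 under TMM scaling. The minimum let miR-138-5p and miR-155 in only because they were higher in NCC. Of all 103 members, 17 had an interval that included equality.

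Both arms of 15 precursor names were members, and the arm with fewer reads in all had the higher ratio in 11 of them. The intervals of the arms did not overlap for 12 precursors, and the minor arm was higher in 9 of these. Which arm counts as minor was set by the reads of both libraries, of which non-NCC holds nearly all. The minimum also bears on this count, since a minor arm of few reads enters only when it is higher in NCC and drops out when it is low there. Such minor arms are those of miR-25, miR-430a and miR-30c. When both arms were instead required to reach 10 NCC reads at an equal level, whatever their NCC reads, the minor arm was higher in 10 of 15 precursors and lower in 5. Over the 15 precursors with both arms as members, the median difference of the minor from the major arm was 1.17 on the log2 scale, the value of miR-30c. For miR-16c, miR-16c-3p was higher in NCC (1.60, 1.25 to 1.94) and miR-16c-5p higher in non-NCC (-1.19, -1.67 to -0.75). Thus the 3p arm took 64.0% of the miR-16c reads in NCC versus 20.4% in non-NCC. The leading arm also differed for miR-221, where the 5p arm took 53.2% in NCC against 19.7% in non-NCC, and for miR-200a, where it took 63.0% and 29.8%. miR-222a was the largest exception, since its minor 5p arm took 16.0% of the reads in NCC versus 48.0% in non-NCC. miR-199 was even, with a 3p share of 37.1% in NCC against 38.7% in non-NCC. The arms are named in the table, and 30 members have no arm in their name. Of the 41 members named 5p, 15 were over 2-fold higher in NCC versus 8 in non-NCC, whereas of the 32 named 3p, 6 and 12 were. Over all 103 members the shares were 29.1% and 23.3%. The minimum bears on this contrast too. Of the 12 NCC-side members that it let in only because they were higher in NCC, most are named 5p.

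**Figure D4:**
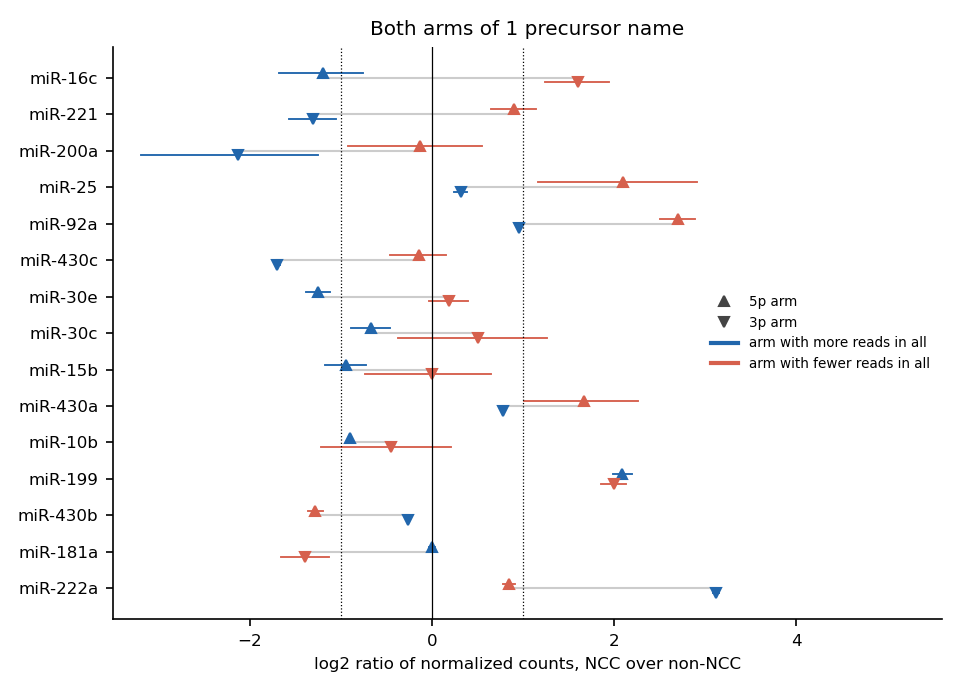
Log2 ratio of normalized counts, NCC over non-NCC (x axis), of the 5p and the 3p arm of 15 precursor names (y axis), with 95% counting intervals. The arm with fewer reads in all lies to the right in 11 precursors, and miR-430b, miR-181a, miR-222a and miR-199 are the other 4.

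Precursor genes within 10 kb of each other were taken as 1 cluster, whatever their strand, from a gene table that names genes for 370 of the 372 miRNAs. In 21 clusters, members came from 2 or more precursors, and their ratios spanned 0.52 to 5.13 on the log2 scale. The span was over 2 in 13 clusters, and 7 had members over 2-fold on both sides. In the miR-430 clusters and that of mir-25, the NCC side rests on miR-430a-5p and miR-25-5p. The minimum let these miRNAs in only because they were higher in NCC. Spans over 2 rest on such members too in the clusters of let-7f (let-7f), mir-125b-2 (miR-125b-2-3p) and mir-130c-1 with mir-301c (miR-130c-5p). Clusters share members whose reads match several genes, and when those that share members were joined, the 21 clusters formed 13 groups, the 13 formed 8 and the 7 formed 5. The widest was the cluster of mir-17a-1, mir-18a, mir-19a, mir-20a, mir-19b and mir-92a-1. In it, miR-19a-3p (-2.43), miR-19b-3p (-1.87), miR-20a-5p (-1.63) and miR-17a-5p (-1.07) were higher in non-NCC, while miR-92a-3p (0.96) and miR-92a-5p (2.70) were higher in NCC. miR-18a, left out with 8 NCC reads versus 1708 non-NCC reads, sided with the first group (-1.84, -3.05 to -0.86). The related cluster of mir-25, mir-19d and mir-93 was split alike, with miR-19d-3p at -2.43, miR-25-3p at 0.32 and miR-25-5p at 2.10. In the third, of mir-363, mir-19c, mir-20b and mir-18c, all 3 members were lower in NCC, from -2.14 to -0.49. miR-17a-5p and both miR-92a arms match more than 1 precursor gene, so their reads cannot be assigned to 1 cluster. A narrow span was found for miR-183-5p and miR-182-5p, at 0.52. Their cluster also holds mir-96, whose arms were left out and have wide intervals. miR-96-5p had 1 NCC read against 311 non-NCC reads (-2.38, -7.69 to 0.105). miR-96-3p had 2 against 41 (1.54, -1.55 to 3.485).

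**Figure D5:**
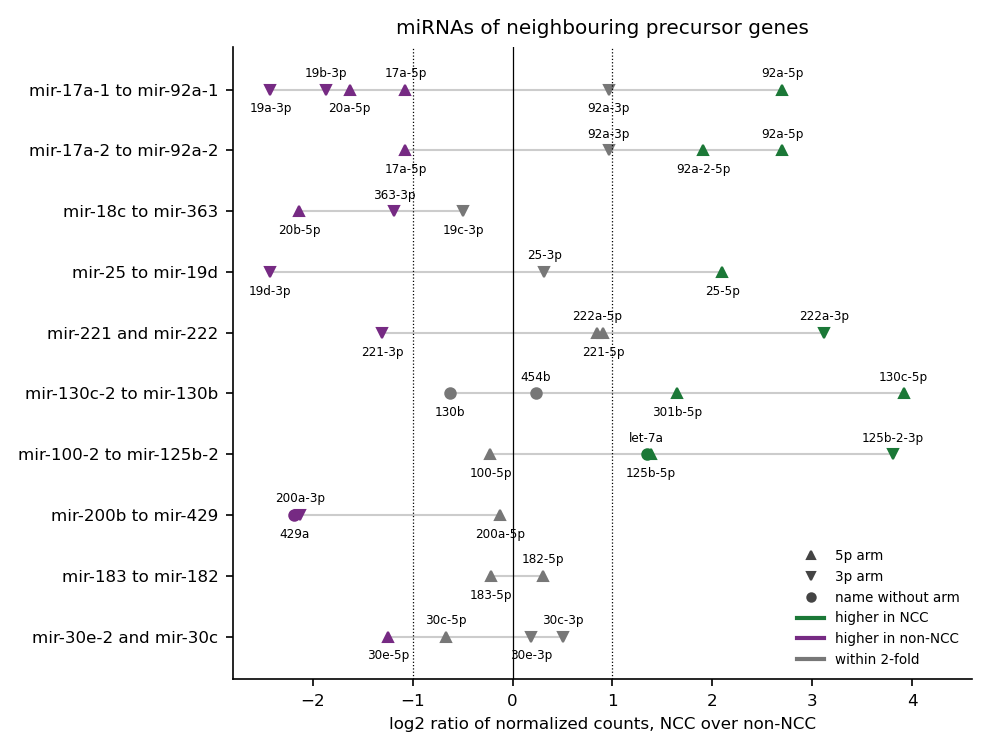
Log2 ratio of normalized counts, NCC over non-NCC (x axis), of the members from 10 clusters of neighbouring precursor genes (y axis), with 1 point a miRNA and dotted lines at 2-fold. In the clusters that start with mir-17a-1 and mir-25, miR-19 members lie left of equality and miR-92a or miR-25 members right of it. The members from the mir-183 cluster, which do not include miR-96, lie close together.

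The rows left out include miRNAs that were far lower in NCC. Of the 269, 72 had fewer than 10 non-NCC reads, 176 had a non-NCC value under that of 10 NCC reads, so that an equal level would not have reached the minimum, and 21 had a non-NCC value at or above it. For 13 of these 21 the whole interval lay past 2-fold on the non-NCC side. miR-219-5p, a miRNA of oligodendrocytes and brain, had 6 NCC reads where 257 would be expected at an equal level, and 15327 non-NCC reads. It stood at 1985 normalized counts in non-NCC, and its ratio was -5.42 (-6.87 to -4.30). miR-124-3p, the most abundant miRNA of mature neurons, had 6 NCC reads against 1859 non-NCC reads (-2.38, -3.83 to -1.25). miR-126b-3p, miR-133b-3p and miR-9-3p had 0 NCC reads. Set against the limit of 3 NCC reads, or 23.2 normalized counts, their non-NCC values were 3.56-fold, 3.46-fold and 3.44-fold higher. The upper ends of the intervals of their log2 ratios were nearer to equality, at -1.53, -1.49 and -1.48. Near the minimum, 8 members had 10 to 12 NCC reads, 5 of them over 2-fold higher in non-NCC and 2 in NCC. Another 10 miRNAs had 8 or 9 NCC reads, with 5 and 1, respectively. These 10 were miR-130c-3p, miR-18c (-2.14), miR-18a, miR-153b-3p (-1.77) and miR-124-5p (-1.18) on the non-NCC side, miR-199-3-3p on the NCC side, and miR-101b (-0.82), miR-27c-3p (-0.98), miR-20a-3p (-0.70) and miR-216b (0.29) within 2-fold.

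Lists of miRNAs known from other cell types were summed over all rows of each list. The sums do not give the share of cells of each type. Muscle miRNAs summed to 640.8 normalized counts in NCC against 645.7 in non-NCC, but 3 of 10 rows had NCC reads, and miR-133a-3p and miR-206-3p made up most of the sum. Neural miRNAs were lower in NCC, at 3960 and 10425 (-1.40, -1.52 to -1.27), with NCC reads in 19 of 29 rows. Of the 3 members on this list, 2 were over 2-fold higher in non-NCC. The other, miR-138-5p, was let in by the minimum only because it was higher in NCC, and its interval included equality. Rows of the list left out for few NCC reads lay on either side of equality, but those whose interval excluded equality all lay on the non-NCC side. miR-9-5p made up most of the sum of this list in both libraries. Epithelial miRNAs differed little in sum, at 8816 and 10245, with NCC reads in 10 of 16 rows, and miR-205-5p dominates it. Endothelial miRNAs were lower in NCC (-2.06, 3 of 4 rows with NCC reads). Blood miRNAs were lower in sum (-0.82, 6 of 9 rows), which rests on miR-144-5p. Without it they were higher in NCC, at 494.1 and 212.3 normalized counts (1.22, 0.83 to 1.58), mainly through miR-451. The sensory list, of interest because the promoter is active in the ear, was at 15270 and 13451 (0.18, 0.12 to 0.25), with NCC reads in 5 of 6 rows, and that of gut and pancreas at 1945 and 2167, with NCC reads in 4 of 7. The mesenchymal list was higher in NCC (1.83, 1.75 to 1.91), at 10600 and 2976, with NCC reads in 8 of 9 rows, and was made up mainly of miR-199. miR-122 of the liver, with only 4 NCC reads and 12 reads in non-NCC, was at 30.9 and 1.55 normalized counts (4.31, 2.22 to 6.04), the highest ratio of the lists. At an equal level 0.20 NCC reads would be expected, so any NCC read would have put miR-122 on the NCC side. No conclusion is drawn from its ratio. The part of other cell types in the ratios of the members was not tested.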

How the data were processed

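Small RNA from GFP-positive (NCC) and GFP-negative (non-NCC) cells of Tg(sox10:eGFP, sox10:mRFP) embryos at 16 hpf was sequenced as 1 library each. Per the labels, RNA was extracted with a column kit (miRNeasy) and reads were single-end, whereas the study's methods state TRIzol and paired-end reads. Reads were checked with FASTQC, aligned with Bowtie (GRCz11 in the submitters' processing notes), counted with HTSeq and normalized with DESeq2. Versions, and the treatment of reads with several matches, are not given in the sources used here. The authors deposited normalized counts, a signal that is never negative, for 372 miRNAs.

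Reads were recovered by dividing each value by the smallest nonzero one of its library (100% whole within 0.001). Ratios were taken from the deposited values, with 95% Clopper-Pearson intervals on the reads. The intervals were tested on simulated reads. The limit of a library was 3 reads. Named are members over 2-fold on either side, the member with the most reads of each family, the 5 highest values of each library, and miRNAs with 8 to 12 NCC reads. Others, such as those left out, second arms and list members, were chosen after their values were seen. Members, families and marker lists were chosen with earlier results of these data known. Alternatives covered scaling (library totals, TMM), the read minimum, the threshold, 0.5 added reads, and summed or single rows of a family. A minimum on the NCC reads expected at an equal level was added after the data were seen. A gene table of another assembly (GRCz12tu) gave only the number and neighbours of precursor genes, without strand. TMM factors came from edgeR 4.0.16 (R 4.3.3), all else from Python 3.11.15 (scipy 1.17.1, numpy 2.4.6, pandas 2.3.3, matplotlib 3.10.9).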

Additional observations from a re-analysis of the deposited data

How the results depend on the processing

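No paired analysis was possible because each population has 1 library. Counts over 2-fold were 30 in NCC and 24 in non-NCC. They became 60 and 57 with any read in both libraries, 18 and 11 with at least 50 reads, and 12 and 7 at 4-fold. With at least 20 reads the non-NCC count was 14, and with the minimum on the mean of both values it was 37. Library totals shifted all ratios by 0.01 on the log2 scale, totals without miR-430 by 0.05 and TMM by -0.23. In alternatives chosen after seeing the data, members that reach 10 NCC reads at an equal level gave 18 in NCC and 24 in non-NCC, and all miRNAs that would reach them gave 18 and 42. Families past 2-fold on the NCC side fell from 3 to 1 (miR-125, then a single miRNA) under both. They numbered 3 under the other alternatives run, but with at least 50 reads they were those of let-7, miR-130 and miR-15, and by summed values or by the row with the most reads the miR-221 family (2.21 and 3.12) took the place of the miR-25 family (0.99 and 0.96). On the non-NCC side there were 4 families, 5 under TMM, 3 with any read, 3 by summed values and 2 with at least 50 reads. The miR-196 family was under 2-fold by summed values (-0.71), by its row with the most reads (-0.33) and with at least 50 reads (-0.91). Of 412 values of single miRNAs under the alternatives, 358 stayed within the counting interval and 54 moved out of it. Only the scaling and the added fraction of a read were varied for single miRNAs. Of those past 2-fold, 0 changed sign, but this was fixed in advance. Both changes are too small to carry a ratio past 2-fold across equality, so the sign was not tested. The 59.9-fold difference in depth limits what can be seen to be low in NCC. Grouping by seed was not run.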

Other observations

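Of the 103 members, 35 match more than 1 precursor gene in the gene table. For 11 of these, the reads in both libraries are whole multiples of the number of genes, among them miR-21 (49116 and 1757286 reads), miR-10b-5p (45024 and 5012966), miR-133a-3p (64 and 674) and let-7c-5p (10 and 236), each with 2 genes. Some such multiples arise by coincidence, and how many was not worked out. Division by that number leaves every ratio as it is, but takes let-7c-5p, miR-125a and miR-206-3p below the minimum, so that 100 members remain, 28 over 2-fold higher in NCC and 23 in non-NCC. All intervals given here were computed on undivided reads. Where reads were counted once per gene, they are too narrow, which matters most for let-7c-5p and miR-125a, whose intervals began near equality (0.26 and 0.07). Across the 103 members, which share both libraries and are not independent replicates, the log2 values of NCC and non-NCC had a Pearson correlation of 0.91 and a Spearman correlation of 0.84, and the log2 ratio and the mean level had correlations of -0.16 and -0.19.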
